A study of Sus scrofa with 23 samples.

Results

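Marker genes of the cells from which new nephrons and new collecting duct branches form were followed in the kidney cortex of newborn pigs. The 9 genes, SIX2, CITED1, EYA1, SALL1, OSR1, PAX2, GDNF, RET and LHX1, were picked by symbol from a pig annotation of 26687 genes, and all 9 passed the expression filter. Total RNA, depleted of ribosomal RNA, was sequenced from 23 pigs. By their genotype labels 11 were CFTR-/- (CF), 6 were CFTR+/- (HET) and 6 were CFTR+/+ (WT), and the 12 HET and WT libraries together formed the non-CF group that the study's methods name. CFTR, the anion channel gene mutated in cystic fibrosis, was the disrupted gene, and since the pigs were bred from CFTR+/- parents, every cell of a pig carried its genotype. Each library came from a different pig, no treatment was labelled, and neither litter nor sex was labelled for a library.

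In the outer cortex of a developing kidney, a cap of nephron progenitor cells sits on each tip of the branching ureteric bud. The cap secretes GDNF, a growth factor that signals through the receptor RET on the bud tip and keeps the tip branching, while signals returning from the bud keep some progenitors self-renewing and push others to form a renal vesicle, the first stage of a nephron. SIX2 holds the progenitors undifferentiated, and its loss from the cap ends nephron formation. In pigs this process goes on for a time after birth, so transcripts of the cap and tip can be read as a measure of the nephron-forming zone in a piece of newborn cortex. Such a reading has a limit in bulk tissue, where fewer cells of a type and less RNA per cell cannot be told apart.

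Libraries held between 32901281 and 52952273 estimated counts, and 3 counts corresponded to between 0.0576 and 0.0884 CPM (counts scaled to library size after TMM normalization, as in every CPM value below), a limit that covers counting error only. The tissue label was borne out by summed TPM, a level that is scaled by transcript length and library. The 7 proximal tubule markers, such as LRP2 and CUBN, summed to a median of 2471 TPM and the 5 collecting duct markers, such as AQP2 and AQP3, to 215 TPM. The markers UMOD, SLC12A1, SLC12A3 and CLDN16 of the thick ascending limb and distal convoluted tubule summed to 481 TPM, and 4 endothelial markers, such as PECAM1 and KDR, to 141 TPM. Liver genes summed to 109 TPM, which came from APOA1, while ALB stood at a median of 0.123 TPM. Leukocyte markers summed to 13.2 TPM, adrenal cortex markers to 3.75 TPM, most of it from CYP11A1 at 2.33 TPM and STAR at 1.073 TPM, with CYP17A1 at 0.0574 TPM and NR5A1, the factor that defines these cells, at 0.0193 TPM, and skeletal muscle markers to 2.06 TPM. CFTR RNA went against the labels. Its median was 2.24 CPM in libraries labelled WT, 12.1 CPM in those labelled HET and 20.7 CPM in those labelled CF, with no overlap between CF and WT (log2 difference 3.14, edgeR's adjusted p = 1.24e-10) or between HET and WT (2.47, adjusted p = 5.13e-08). Whether labels were exchanged was not tested, so CF, HET and WT below mean the libraries so labelled. An exchange of CF and WT would turn each direction given between them. It would also make the comparison of CF with non-CF one of CFTR+/+ pigs with CFTR+/- and CFTR-/- pigs together.

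The 9 progenitor and bud genes together summed to a median of 38.2 TPM and fell into a higher, a middle and a lower level. SALL1, a zinc finger factor of the cap mesenchyme, had the highest median level at 10.3 TPM, with libraries from 5.87 to 13.7 TPM. PAX2, a paired-box factor of both cap and bud, followed at 9.61 TPM (7.05 to 15.9), and LHX1, a LIM homeobox factor of the bud and of newly formed renal vesicles, at 9.18 TPM (7.39 to 12.9). These neighbours could not be ordered, since SALL1 exceeded PAX2 in 14 of 23 libraries and PAX2 exceeded LHX1 in 12 of 23. A gap then separated LHX1 from GDNF at 2.97 TPM (1.62 to 5.16), with LHX1 higher in 23 of 23 libraries and no overlap of their ranges. EYA1, a coactivator of SIX2 and its relatives, stood at 2.26 TPM (1.46 to 4.02) and was under GDNF in 19 of 23 libraries. RET stood at 1.70 TPM (0.829 to 2.31) and was under EYA1 in 20 of 23. The lowest 3 were CITED1, a transcriptional coregulator of the least committed cap cells, at 0.842 TPM (0.382 to 1.57), OSR1, a zinc finger factor of the early kidney field, at 0.765 TPM (0.303 to 1.68), and SIX2 at 0.696 TPM (0.274 to 1.13). RET lay above CITED1 in 23 of 23 libraries, whereas CITED1 exceeded OSR1 in 13 and OSR1 exceeded SIX2 in 12 of 23, so the lowest 3 had no order.

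**Figure D1:**
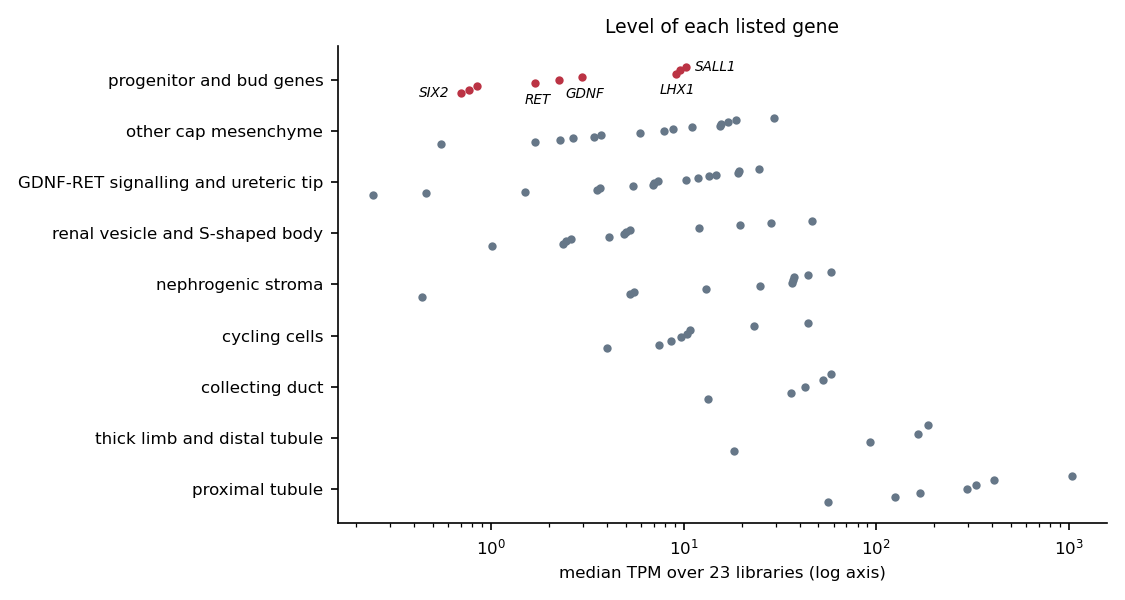
Each point is 1 gene, placed at its median TPM over 23 libraries on a log axis, with the 9 progenitor and bud genes in red and genes of related and of mature kidney lists in grey. SIX2 at 0.696 TPM and SALL1 at 10.3 TPM mark the ends of the red points, all of which lie left of every proximal tubule gene; FGF20, with a median of 0, is not drawn.

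SIX2 and CITED1, which mark the cap most closely, had the fewest reads. SIX2 had 15 to 61 counts in a library and CITED1 12 to 45, against 1325 to 3458 for SALL1. Their coefficients of variation over the 23 libraries were the highest of the 9, at 32.8% of the mean CPM for SIX2 and 31.8% for CITED1, of which sampling of reads alone would give 17.3% and 18.1%. OSR1 varied by 26.4%, GDNF by 23.8%, RET by 22.1%, PAX2 by 22.01%, EYA1 by 21.4%, SALL1 by 18.7% and LHX1 by 12.96%, beside a median of 17.99% over all 21434 genes tested. LHX1 was thus the steadiest of the 9, with its highest library 1.57 times its lowest, while the highest SIX2 library was 4.25 times its lowest.

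The bases that precede the transcript starts of SIX2, RET and GDNF are shown because these genes stand for the cap, the receptor on the bud tip and the ligand between them. Each run holds 250 bases on the sense strand, read from the RefSeq pig genome Sscrofa11.1, with the GC box GGGCGG, read on both strands with overlaps kept, in capitals. The SIX2 run lies at chr3:95459796-95460045 on the plus strand, the RET run at chr14:61305568-61305817 on the plus strand, and the GDNF run at chr16:22965930-22966179 on the minus strand, before the outer of its 2 starts.
SIX2: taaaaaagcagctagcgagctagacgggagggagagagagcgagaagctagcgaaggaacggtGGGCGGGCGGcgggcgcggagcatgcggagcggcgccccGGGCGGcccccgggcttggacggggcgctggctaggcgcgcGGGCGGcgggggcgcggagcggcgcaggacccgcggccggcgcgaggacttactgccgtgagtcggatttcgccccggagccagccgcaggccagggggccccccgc
RET: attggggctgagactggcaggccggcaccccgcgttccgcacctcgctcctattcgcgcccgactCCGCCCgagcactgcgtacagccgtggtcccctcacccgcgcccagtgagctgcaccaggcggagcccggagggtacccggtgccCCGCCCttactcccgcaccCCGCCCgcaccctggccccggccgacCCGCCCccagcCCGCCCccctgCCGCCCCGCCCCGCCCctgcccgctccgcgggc
GDNF: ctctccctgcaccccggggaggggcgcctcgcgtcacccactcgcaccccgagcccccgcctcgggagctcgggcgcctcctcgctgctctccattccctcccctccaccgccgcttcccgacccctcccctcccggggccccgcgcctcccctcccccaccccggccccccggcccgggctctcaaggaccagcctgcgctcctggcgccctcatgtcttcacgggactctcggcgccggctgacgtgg
The SIX2 run held 4 GC boxes, the RET run 8 and the GDNF run none. Over the regions before the main transcript of each of the 9 genes, 6 of 9 held a GC box, a motif found in 40.8% of the 26669 pig regions of the same length. GC content was 76.4% before SIX2, 78.8% before RET and 77.6% before the outer GDNF start, against a median of 56% over all regions. The core TGATAC, a sequence that SIX2 and its relatives can bind, was in 0 of 9 regions and in 3.71% of all, and the homeodomain core TAATTA was in 0 of 9 and in 4.17% of all. A match or its absence describes these letters in this window only.

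Whether disruption of CFTR went with a change of the nephron-forming zone was examined first between CF and non-CF libraries. None of the 9 genes passed the test. In edgeR's quasi-likelihood fit of 21434 genes, with Benjamini-Hochberg adjusted p-values, 0 of 9 had an adjusted p under 0.05, beside 0.341% of all genes (73 of 21434), and 0 of 9 had an unadjusted p under 0.05, beside 13.5% of all genes. The exact Mann-Whitney U test, which the study's methods name, gave 0 of 9 as well at an adjusted p under 0.05 (0.135% of all genes) and 0 of 9 unadjusted (11.5% of all genes). Limma-voom also called 0 of 9, and DESeq2 called 0 of the 7 to which it gave an adjusted p, with none given to SIX2 and CITED1. The log2 differences ran from -0.17 for GDNF to 0.16 for SIX2, 3 genes being higher and 6 lower in the libraries labelled CF, with a median of -0.014 beside -0.00024 over all genes. The 95% confidence interval of the difference lay within 0.5 on either side of 0 for 8 of 9 genes and within 1 for 9 of 9, so a log2 difference of 1 in either direction lay outside every interval. The 9 genes summed to 30.5 to 48.3 TPM with a median of 38.2 in libraries labelled CF, to 33.0 to 38.4 with a median of 36.6 in HET and to 36.4 to 54.6 with a median of 42.8 in WT. Most of this sum came from SALL1, PAX2 and LHX1, with medians of 10.3, 9.61 and 9.18 TPM. SIX2, CITED1 and OSR1 gave little of it, at 0.696, 0.842 and 0.765 TPM.

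**Figure D2:**
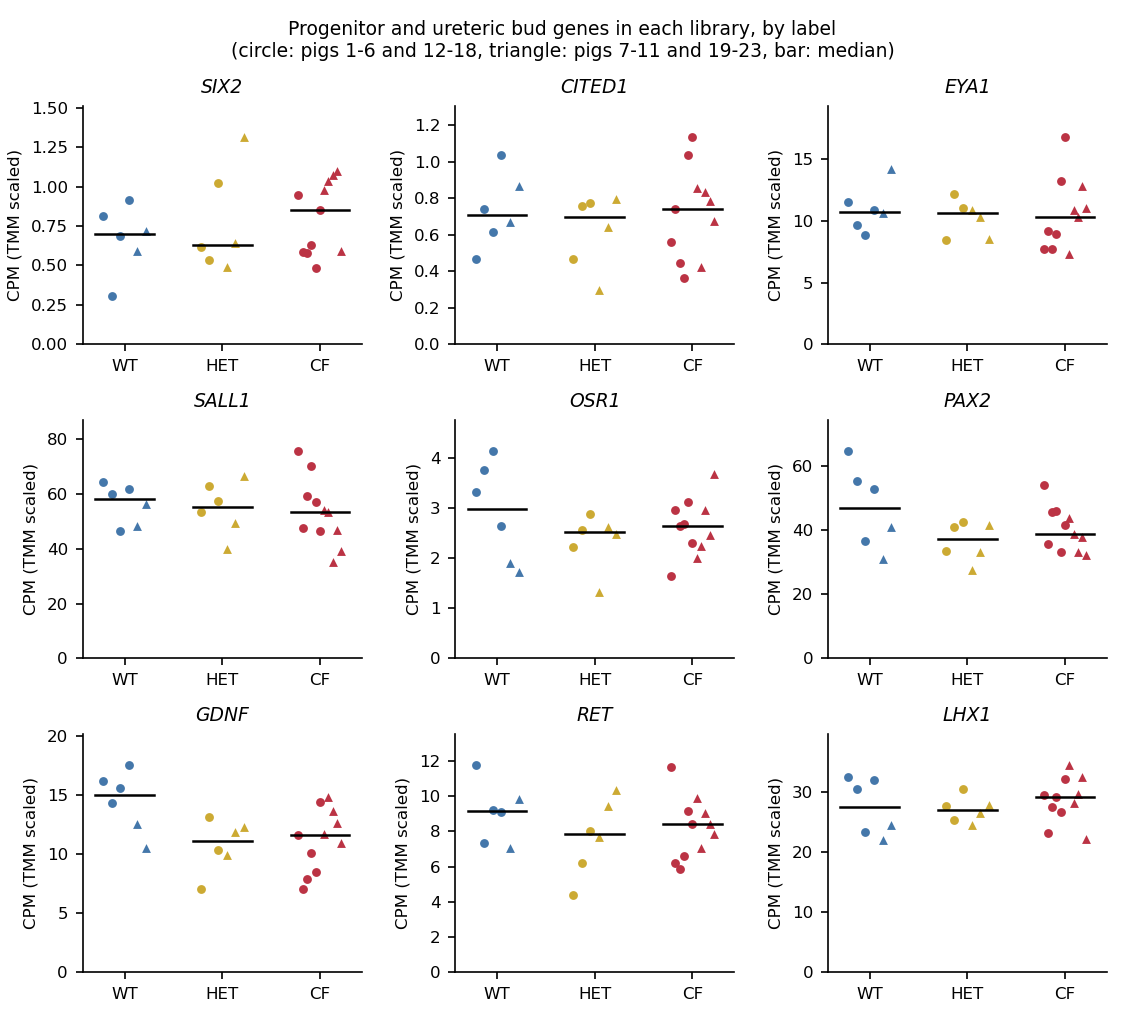
CPM after TMM scaling of each of the 9 genes (vertical axes from 0) in each library, by label, with circles for pigs 1 to 6 and 12 to 18, triangles for pigs 7 to 11 and 19 to 23, and a bar at the median of each label. The ranges of the labels overlap in every panel; EYA1, SALL1, OSR1, PAX2, GDNF and RET have their highest medians in WT (GDNF at 14.99 and PAX2 at 47.0 CPM), and SIX2, CITED1 and LHX1 in CF.

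Among the cap genes, SIX2 (gene 100525814, chr3:95460046-95463428) ranged from 0.485 through a median of 0.853 to 1.10 CPM in the 11 libraries labelled CF. In the 6 labelled HET it ran from 0.492 through 0.629 to 1.32 CPM, and in the 6 labelled WT from 0.309 through 0.702 to 0.913 CPM. The labels overlapped, the lowest library being WT pig 16 and the highest HET pig 21. The log2 difference between CF and non-CF was 0.16 (SE 0.200, 95% interval -0.25 to 0.57, edgeR's adjusted p = 0.795), and it ranged from 0.081 to 0.28 with 1 library left out. CITED1 (gene 654297, chrX:58179084-58184778) ran from 0.365 through 0.739 to 1.14 CPM in CF, from 0.295 through 0.700 to 0.798 in HET and from 0.467 through 0.707 to 1.04 in WT, a log2 difference of 0.070 (SE 0.203, adjusted p = 0.934). For both genes 6 of 11 CF libraries lay above the non-CF median.

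EYA1 (gene 100737938, chr4:63970939-64328107) had medians of 10.4, 10.6 and 10.8 CPM in CF, HET and WT, and the widest spread was within CF, from 7.35 CPM in pig 7 to 16.8 CPM in pig 6. Its log2 difference between CF and non-CF was -0.0068 (SE 0.122, edgeR's adjusted p = 0.990). SALL1 (gene 100519899, chr6:33731666-33748698) had medians of 53.3, 55.3 and 58.1 CPM in the same order, and again both extremes were CF libraries, 35.2 CPM in pig 9 and 75.8 CPM in pig 1, with a log2 difference of -0.061 (SE 0.110, adjusted p = 0.873). OSR1 (gene 100520131, chr3:118368471-118765107) ran from 1.65 through 2.65 to 3.68 CPM in CF, from 1.33 through 2.52 to 2.88 in HET and from 1.72 through 2.98 to 4.15 in WT, a log2 difference of -0.014 (SE 0.159, adjusted p = 0.984). The CF libraries of OSR1 lay wholly inside the non-CF range. For EYA1, by contrast, 1 of 11 CF libraries lay above and 3 of 11 below every non-CF library.

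PAX2 and LHX1 belong to the bud as well as to forming nephrons. PAX2 (gene 100515585, chr14:111822334-111914950) ran from 32.2 through 39.0 to 54.0 CPM in CF, from 27.5 through 37.3 to 42.5 in HET and from 31.0 through 47.0 to 64.9 in WT. Its highest libraries were WT pigs 12 and 16, at 64.9 and 55.3 CPM, and its log2 difference between CF and non-CF was -0.055 (SE 0.122, edgeR's adjusted p = 0.906). LHX1 (gene 100513681, chr12:38450708-38457583) ran from 22.1 through 29.2 to 34.6 CPM in CF, from 24.6 through 27.1 to 30.6 in HET and from 22.1 through 27.6 to 32.5 in WT. It lay above the non-CF median in 8 of 11 CF libraries, and its difference of 0.072 had the smallest error of the 9 (SE 0.0786, 95% interval -0.090 to 0.23, adjusted p = 0.756).

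GDNF, the ligand (gene 100322894, chr16:22936602-22965929), ran from 7.06 through 11.6 to 14.8 CPM in CF, from 7.06 through 11.13 to 13.2 in HET and from 10.5 through 14.99 to 17.6 in WT. All 11 CF and all 6 HET libraries lay below the WT median, while 4 of 11 CF libraries lay below every WT library. Against all non-CF libraries the log2 difference was -0.17 (SE 0.138, 95% interval -0.46 to 0.11, edgeR's adjusted p = 0.645). RET, the receptor (gene 100155053, chr14:61305818-61361416), ran from 5.85 through 8.40 to 11.6 CPM in CF, from 4.38 through 7.85 to 10.4 in HET and from 7.07 through 9.14 to 11.8 in WT. Its difference was -0.031 (SE 0.134, adjusted p = 0.960), and the CF libraries lay within the non-CF range.

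Because pigs labelled HET carry 1 disrupted allele, the 3 labels were also set against each other in one fit of all 23 libraries. No gene of the 9 passed an adjusted p of 0.05 in any pair of labels, by edgeR or by DESeq2. For CF against WT, 0.336% of all genes were called by edgeR, and for HET against WT 0.00467%. For CF against HET 0% were called by edgeR (0 of 21434, with 2107 genes or 9.83% at an unadjusted p under 0.05), while DESeq2 called 63 genes. GDNF differed from WT by a log2 difference of -0.37 in CF (SE 0.152, edgeR's unadjusted p = 0.0234, adjusted p = 0.268) and of -0.42 in HET (SE 0.176, unadjusted p = 0.0242, adjusted p = 0.589). It was the only 1 of the 9 with an unadjusted p under 0.05 for CF against WT, beside 14% of all genes. For HET against WT, GDNF and PAX2 (-0.36, SE 0.156, unadjusted p = 0.0300, adjusted p = 0.609) made 2 of 9, beside 8% of all genes. The 9 genes had a median log2 difference of -0.078 for CF against WT, -0.23 for HET against WT and 0.083 for CF against HET, beside -0.00070, -0.0043 and 0.0055 over all genes. Of the 9, 7 were lower in CF than in WT and 8 lower in HET than in WT, and both comparisons share the 6 WT libraries.

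**Figure D3:**
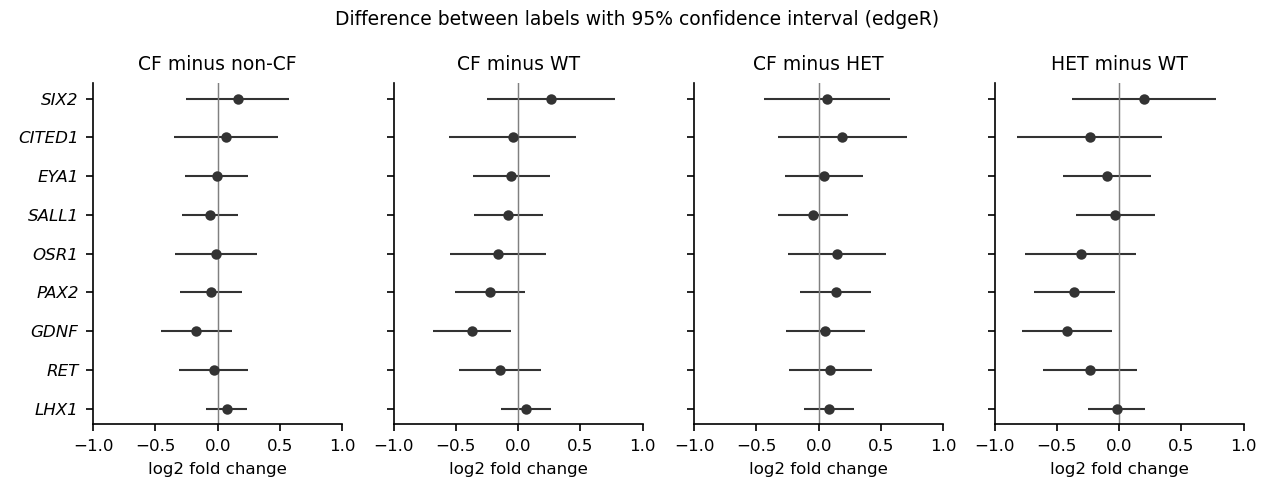
Log2 fold change of each gene for CF minus non-CF, CF minus WT, CF minus HET and HET minus WT, with 95% confidence intervals from edgeR (points, horizontal bars; vertical line at 0). The intervals of GDNF for CF minus WT and of GDNF and PAX2 for HET minus WT do not reach 0, and none of the 9 had an adjusted p under 0.05 in any panel.

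The libraries also stood apart by pig number. An earlier multidimensional scaling of these libraries had separated pigs 1 to 6 and 12 to 18 (13 libraries, of which 6 were CF, 3 HET and 4 WT) from pigs 7 to 11 and 19 to 23 (10 libraries, 5 CF, 3 HET and 2 WT), and the labels name no batch. Here the sets separated on the second axis, which held 10.9% of the variance, with the first set from -0.82 to -0.019 and the second from 0.30 to 0.86. On the first axis (15.9%) the sets mixed, and 10 libraries (5 CF, 1 HET and 4 WT) lay from -1.07 to -0.33 and 13 (6 CF, 5 HET and 2 WT) from 0.081 to 0.93. The part of that axis in the differences between labels was not tested. Since the split by number came from expression, the differences between both sets are described with no test. With the label held constant, the second set was lower in PAX2 by a log2 difference of -0.28 (SE 0.103), in SALL1 by -0.26 (SE 0.102) and in OSR1 by -0.25 (SE 0.156), and higher in SIX2 by 0.29 (SE 0.201), in RET by 0.16 and in GDNF by 0.12. For PAX2, SALL1, OSR1 and SIX2 these were larger in size than any of the 9 differences between CF and non-CF libraries. For CITED1, EYA1 and LHX1 the sets differed by less than 0.1.

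Within each set, 0 of 9 genes passed an adjusted p of 0.05 for CF against non-CF. In the first set edgeR called 0 of 21627 genes (1936 at an unadjusted p under 0.05), and in the second set 462 of 21664. GDNF differed by -0.45 in the first set (SE 0.202, edgeR's unadjusted p = 0.0413, adjusted p = 0.534) and by 0.16 in the second (SE 0.110, adjusted p = 0.507). It was the only 1 of the 9 with an unadjusted p under 0.05 in the first set. In the second set 0 of 9 had one, beside 3715 of 21664 genes. OSR1 differed by -0.27 in the first (SE 0.178, adjusted p = 0.714) and by 0.41 in the second (SE 0.216, adjusted p = 0.370). The sets thus gave these genes opposite signs, but the difference between the sets, tested as an interaction, did not pass the adjustment for either, at 0.60 for GDNF (SE 0.261, edgeR's unadjusted p = 0.0316, adjusted p = 0.434) and 0.66 for OSR1 (SE 0.282, unadjusted p = 0.0268, adjusted p = 0.408). No other gene of the 9 had an unadjusted p under 0.05 for the interaction, and 0 of 9 were called, beside 0.0187% of all genes called and 10.1% unadjusted.

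The deposited values are given per transcript, so the isoforms that carry each level could be described. SALL1, RET and LHX1 have 1 annotated transcript each, and the 2 of SIX2 share a start. GDNF has 2 starts on the minus strand of chromosome 16, the outer at -5268 bases relative to the inner. The inner start at 22960661 carried 53.8% of the GDNF TPM and the outer at 22965929, with 2 transcripts, 46.2%. The share of the inner start was 51.8% in CF, 57.4% in HET and 53.9% in WT libraries, and single libraries ranged from 13.7% to 66.1%. The 250 bases before the inner start overlap coding exons of the outer transcripts, 137 bases of one and 59 of the other, which is why the outer run is the one shown above. All 7 PAX2 transcripts begin at 4 starts within 5 bases. In OSR1, whose annotated span is long, 2 starts 1 base apart carried most of the TPM. The outer, of a transcript of 6465 bases, held 35.6% in CF, 41.6% in HET and 31.3% in WT libraries. The inner, of a transcript of 1930 bases, held 48.4%, 23.8% and 57.0%. With starts 1 base apart, these are shares estimated for 2 transcripts and do not measure the use of either start. OSR1 had 54 to 188 counts in a library, and the difference between labels was not tested. The 14 EYA1 transcripts begin at 8 starts, the first of which carried 27.3%. The 15 CITED1 transcripts shared too few counts to be told apart.

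Genes that act beside these 9 were grouped into lists by role. Among 15 of 16 other cap mesenchyme genes that passed the filter, 9 were higher and 6 lower in CF than in non-CF libraries, with a median log2 difference of 0.016, and edgeR called 0 (1 at an unadjusted p under 0.05), beside 0.341% of all genes called and 13.5% unadjusted. FGF20 was the gene that did not pass. The 3 with the smallest p were MEIS2 at -0.15 (adjusted p = 0.278), COL2A1 at 0.62 (adjusted p = 0.384) and SIX4, a homeobox relative of SIX2, at 0.15 (adjusted p = 0.454). The 10 nephrogenic stroma genes had a median of 0.0090 and 0 called (0 unadjusted), with FOXD1, the factor that defines this stroma, at 0.14 (adjusted p = 0.462), NTN1 at 0.21 and TBX18 at -0.36. No gene of either list passed the test.

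Of 12 genes of the renal vesicle and S-shaped body, the stages that follow the cap, 10 were higher and 2 lower in CF, with a median of 0.11, and edgeR called 0 (3 of 12 unadjusted, beside 0.341% called and 13.5% unadjusted over all genes). JAG1, a Notch ligand, differed by 0.19 (SE 0.0640, adjusted p = 0.153) and lay above the non-CF median in 10 of 11 CF libraries. HEY1, a Notch target, differed by 0.30 (SE 0.104, adjusted p = 0.173), and DLL1, another Notch ligand, by -0.23 (adjusted p = 0.266). PAX8 had no entry under that symbol. The 8 cycling cell genes had a log2 difference below 0 in 8 of 8, with a median of -0.27 beside -0.00024 over all genes. None passed the adjusted threshold (0.341% of all genes did), and 6 of 8 had an unadjusted p under 0.05, beside 13.5% of all genes. PCNA, the DNA polymerase clamp, differed by -0.37 (SE 0.120, adjusted p = 0.146), CDK1 by -0.30 (adjusted p = 0.219) and CCNA2 by -0.25 (adjusted p = 0.240). Summed, the cycling genes had medians of 109 TPM in CF, 130 TPM in HET and 142 TPM in WT libraries, and their part in the values of the 9 genes was not tested. In the same comparison 7 of 31 tested marker genes of other cell types had an unadjusted p under 0.05, 3 higher and 4 lower in CF, and edgeR called 0. Within a list these markers did not all stand on one side of 0. In the list of the thick ascending limb and distal tubule the salt transporters SLC12A3 and SLC12A1 stood at -0.64 and -0.28 (adjusted p = 0.0859 and 0.0992), but UMOD at 0.28 and CLDN16 at -0.089. The endothelial genes KDR and EMCN stood at -0.26 and -0.22 (adjusted p = 0.153 and 0.371), but PECAM1 at 0.014 and CDH5 at 0.029. The 3 higher markers were CUBN of the proximal tubule at 0.24 (adjusted p = 0.201), HSD11B2 of the collecting duct at 0.26 (adjusted p = 0.220) and APOA1 at 0.35 (adjusted p = 0.315), and ALB, at -1.76 (adjusted p = 0.307), was the other lower one with an unadjusted p under 0.05. These markers were picked after their values were seen. The summed markers of the thick ascending limb and distal tubule ran from 357 to 545 TPM in CF, 368 to 558 in HET and 442 to 615 in WT, and those of endothelium from 118 to 155, 118 to 155 and 137 to 183 TPM. The part of these cells in the cycling gene values was not tested.

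The 16 genes of GDNF and RET signalling and the ureteric tip had a median of -0.016, with 7 higher and 9 lower in CF, and edgeR called 0 (5 of 16 unadjusted, 3 of them higher and 2 lower), beside 0.341% called and 13.5% unadjusted over all genes. ETV4, a transcription factor induced by RET signalling, differed by -0.41 (SE 0.120, edgeR's adjusted p = 0.111). WNT9B, the bud signal that starts nephron formation, differed by 0.52 (SE 0.154, adjusted p = 0.112), and DUSP6, a phosphatase induced by ERK signalling, by -0.43 (SE 0.138, adjusted p = 0.145). DESeq2 called ETV4 (adjusted p = 0.0362) and WNT9B (adjusted p = 0.0334), beside 512 of 21434 genes over all. GFRA1, the coreceptor of RET, differed by -0.00071, and SPRY2, an inhibitor of receptor tyrosine kinase signalling, by -0.037.

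ETV4 was lower in libraries labelled CF than in those labelled WT. It ran from 22.1 through 29.1 to 39.8 CPM in CF, from 24.95 through 36.1 to 41.6 in HET and from 34.7 through 43.5 to 57.7 in WT. The CF libraries were low, 8 of 11 lying below every WT library and 11 of 11 below the WT median, while 3 of 11 overlapped the WT range. The log2 difference was -0.58 (SE 0.131, edgeR's adjusted p = 0.0486), the only call by edgeR in the 5 lists for CF against WT (DESeq2 called ETV4 and JAG1), and -0.62 with the number set as a term (adjusted p = 0.0225). Over all genes, edgeR called 72 of 21434 (0.336%) and DESeq2 575 of 21420 for CF against WT. This call was close to the threshold. It was lost without a filter on low counts (adjusted p = 0.0539) and in a fit of the CF and WT libraries alone (adjusted p = 0.0622). It was also lost in 19 of 23 fits that left out 1 library, with adjusted p from 0.0320 to 0.134 over these fits and log2 differences from -0.65 to -0.50, and it was kept without CF pigs 4, 6 or 10 or without HET pig 13. For HET against WT the difference was -0.37 (SE 0.152, adjusted p = 0.586).

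WNT9B and DUSP6 gave unlike differences between CF and non-CF in both number sets. In the second set WNT9B stood at 1.12 (SE 0.157, edgeR's adjusted p = 0.00385) and DUSP6 at -0.89 (SE 0.103, adjusted p = 0.00156). In the first set they stood at -0.0010 and -0.054. The interaction was 1.10 for WNT9B (SE 0.225, edgeR's adjusted p = 0.0661) and -0.86 for DUSP6 (SE 0.222, adjusted p = 0.155), neither passing the threshold by edgeR, and both passing it by DESeq2 (adjusted p = 0.00194 and 0.0308). For the interaction DESeq2 called 151 of 21397 genes. SOX9 (0.78, adjusted p = 0.0307) and LFNG (0.37, adjusted p = 0.0461), named after their values were seen, were the other list genes called in the second set alone. Over all genes, edgeR called 462 of 21664 in that set. WNT9B ran from 13.3 through 20.5 to 36.2 CPM in CF and from 10.4 through 15.8 to 19.9 in non-CF libraries, with 6 of 11 CF libraries above every non-CF library. Without CF pig 1, whose DUSP6 level of 97.9 CPM was the highest in CF, DUSP6 differed by -0.54 (edgeR's adjusted p = 0.0414).

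**Figure D4:**
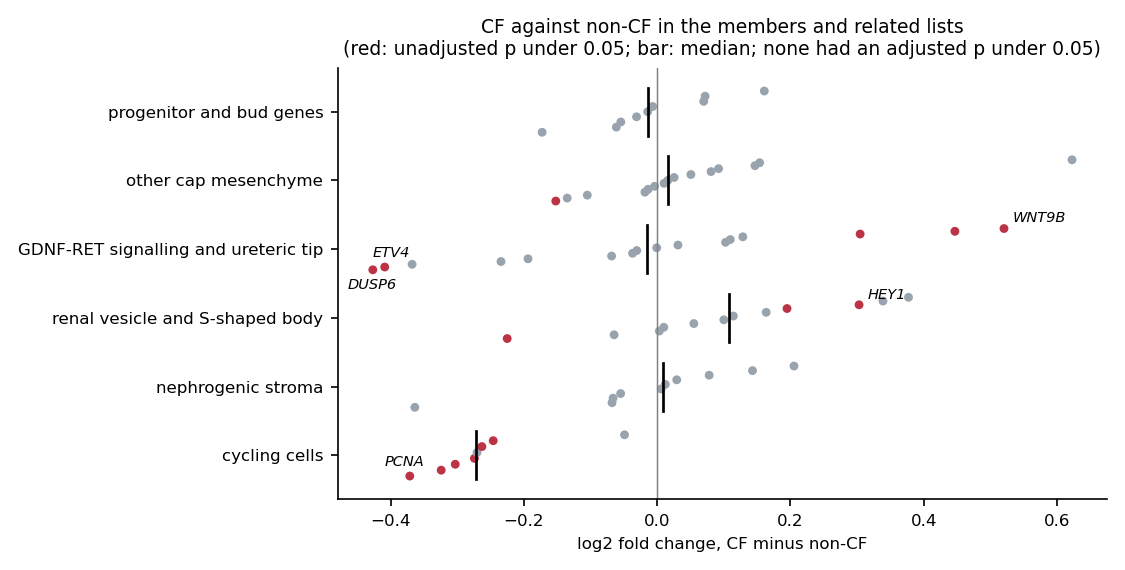
Log2 fold change for CF minus non-CF of each tested gene in the 9 progenitor and bud genes and in 5 related lists, with red points for an unadjusted p under 0.05 and black bars at the median of each list. The 9 genes lie between -0.17 and 0.16 with none in red, the 8 cycling cell genes all lie below 0, and ETV4, DUSP6 and WNT9B lie at the edges of their list.

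Genes of one signalling unit were compared across pigs, as log2 CPM over the 23 libraries, with permutation p adjusted over 16 pairs. RET and its coreceptor GFRA1 moved together, with Pearson's r = 0.64 (adjusted permutation p = 0.0152) and Spearman's rho = 0.68 (adjusted p = 0.00784), and r = 0.58 without the 2 libraries farthest from the median of RET. Within the first number set r was 0.85 (rho = 0.90, adjusted permutation p = 0.00528 and 0.00096), and within the second, of 10 libraries, r was 0.49 (rho = 0.37, adjusted permutation p = 0.398 and 0.538). The pair thus passed within the first set and did not pass within the second. It was the only pair of the 16 to pass by both measures on CPM. RET and its ligand GDNF reached r = 0.54 and rho = 0.38 (adjusted permutation p = 0.0605 and 0.176), with r = 0.29 without the 2 farthest libraries. Within the number sets r was 0.64 in the first and -0.23 in the second (adjusted permutation p = 0.142 and 0.599), so the sign did not hold, while on TPM over all 23 libraries the pair passed at r = 0.67 and rho = 0.54 (adjusted permutation p = 0.00264 and 0.0490). RET and ETV4 reached r = 0.24 and rho = 0.19 (adjusted permutation p = 0.437 and 0.474), with r = -0.019 without the 2 farthest libraries and r = 0.27 and -0.16 within the sets (adjusted permutation p = 0.611 and 0.703). On TPM over all libraries RET and ETV4 passed at r = 0.50 and rho = 0.51 (adjusted permutation p = 0.0493 and 0.0490), with r = 0.38 without the 2 farthest.

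SIX2 and CITED1, the other marker of uncommitted cap cells, reached r = 0.21 and rho = 0.26, which did not pass (adjusted permutation p = 0.479 and 0.408). SIX2 reached r = 0.45 with each of LHX1 (rho = 0.54, adjusted permutation p = 0.0847 and 0.0682), the stromal gene FOXD1 (rho = 0.39, adjusted permutation p = 0.0847 and 0.176) and RET (rho = 0.50, adjusted permutation p = 0.0847 and 0.0922), which did not pass. The r of SIX2 with LHX1 was 0.71 without the 2 libraries farthest from the median of SIX2 and 0.35 and 0.75 within the sets (adjusted permutation p = 0.481 and 0.126), and on TPM it was 0.49 with rho = 0.48, of which r alone passed (adjusted permutation p = 0.0493 and 0.0577). The r of SIX2 with FOXD1 was 0.32 without the 2 farthest, 0.48 and 0.45 within the sets (adjusted permutation p = 0.291 and 0.398), and 0.48 on TPM with rho = 0.37 (adjusted permutation p = 0.0493 and 0.163). On TPM the pair of SIX2 and RET passed, at r = 0.48 and rho = 0.52 (adjusted permutation p = 0.0493 and 0.0490), and within the sets, on CPM, it stood at r = 0.43 in each and did not pass (adjusted permutation p = 0.325 and 0.398). Of the other members, SIX2 stood at r = -0.026 with EYA1, 0.049 with SALL1, -0.18 with OSR1, 0.16 with PAX2 and 0.315 with GDNF. None of these pairs passed on CPM, and without the 2 farthest libraries r was 0.43 with PAX2 and 0.52 with GDNF. On TPM SIX2 and GDNF reached r = 0.44 and rho = 0.50, of which rho alone passed (adjusted permutation p = 0.0743 and 0.0490). With the cycling gene MKI67 the r of SIX2 was 0.24 and with the proximal tubule gene LRP2 0.12. The low counts of SIX2 and CITED1 limit such values. Among the 27 other pairs of the 9 genes, looked at afterwards, SALL1 and PAX2 reached r = 0.74 and rho = 0.77 (adjusted permutation p = 0.00108 and 0.00081), with r = 0.72 without the 2 farthest libraries. PAX2 and LHX1 reached r = 0.63 and rho = 0.66 (adjusted permutation p = 0.0163 and 0.0120). On TPM the rho of PAX2 and LHX1 was 0.57 and did not pass (adjusted permutation p = 0.0725), and within the number sets r was 0.69 and 0.61, passing in neither (adjusted permutation p = 0.128 and 0.412). Within the number sets SALL1 and PAX2 stood at r = 0.63 and r = 0.75 (adjusted permutation p = 0.201 and 0.399), so the relation kept its sign but did not pass within either set.

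**Figure D5:**
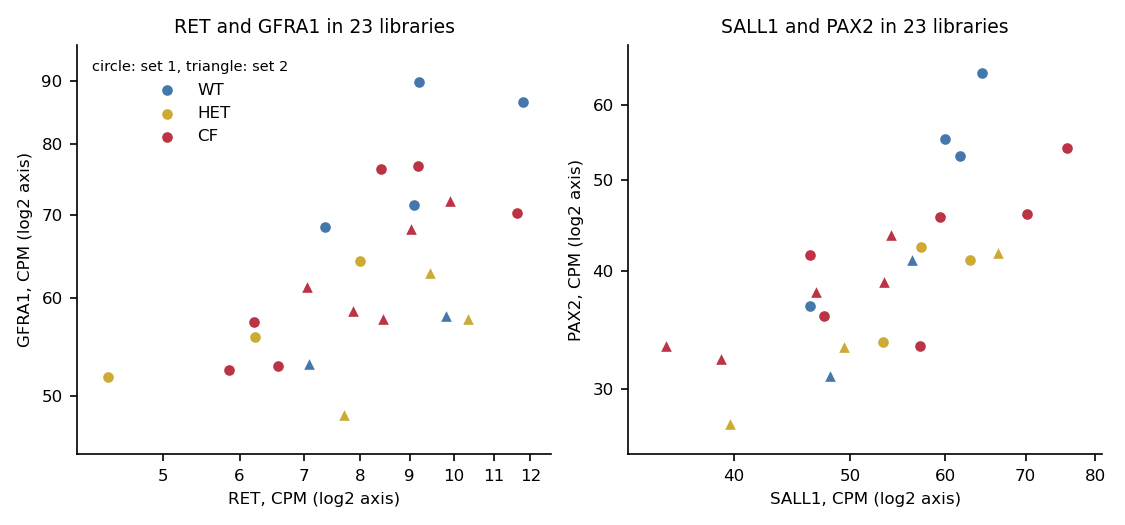
GFRA1 against RET and PAX2 against SALL1, each as CPM on log2 axes, with 1 point per library coloured by label, circles for the first and triangles for the second number set. Both clouds rise from lower left to upper right (r = 0.64 and r = 0.74), and no label forms a cloud of its own.

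Over all tested genes, those whose log2 CPM most resembled SIX2 across the 23 libraries were FGF8, a growth factor of the renal vesicle, with r = 0.75, then LOC110259119 (0.66), HS3ST3B1 (0.65), COL13A1 (0.64) and ARHGEF10L (0.64). For RET they were SYP (0.85), LOC100521659 (0.79), SMARCC1 (0.78), SPRY2 (0.78) and DCT (0.77). These are the highest of many values, over libraries that differ in depth and number set, and they are a description.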

How the data were processed

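The authors pseudoaligned reads of stranded, ribosomal RNA-depleted libraries to pig transcripts of Sscrofa11.1 with kallisto, as the submitters' processing notes and the study's methods state. Whether strand was used is not given in the sources used here. The authors deposited an estimated count and a TPM value for each of 77689 transcripts in each library. Estimated counts were summed per symbol over the 26687 genes of the deposited transcript table and rounded, since 63% of transcript values were not whole within 1e-06. TPM values were summed per symbol and used for levels between genes. No 2 libraries held identical values.

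Counts were tested with edgeR 4.0.16 on R 4.3.3 (TMM, filterByExpr by label, quasi-likelihood test, Benjamini-Hochberg adjustment, threshold 0.05) in 21434 genes. CF was compared with non-CF, the labels pairwise in one fit, and CF by pig number as an interaction. The exact two-sided Mann-Whitney test was run on CPM with scipy 1.17.1. Correlations used log2 CPM with a prior count of 2 and 100000 permutations. Alternatives were DESeq2 1.42.0, limma-voom (limma 3.58.1), other normalizations, filters and control groups, the pig number sets, and each library left out in turn. The edgeR, DESeq2, limma-voom and Mann-Whitney tests were tested on simulated data, in which DESeq2 gave the largest share of false calls. P-values between labels set a difference against the spread between pigs. Pigs were counted as independent, since litter could not be modelled. The permutation p-values were computed over libraries of all labels together.

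The genes and lists were chosen with earlier results of these data known. Genes named are the 9, the 3 genes of each list with the smallest unadjusted p, the 5 genes most like SIX2 and RET, CFTR, the first markers of each list and the genes of the fixed pairs, and any other is marked as such. 2 marker lists are not reported here. Reads, metabolite and protein data were not used here.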

Additional observations from a re-analysis of the deposited data

How the results depend on the processing

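The 9 genes had 0 calls for CF against non-CF, for each pair of labels, for the interaction with pig number and by the Mann-Whitney test under each alternative run for them, and 0 calls for CF against non-CF and for each pair of labels in each fit that left out 1 library. A filter at a mean of 1 CPM removed SIX2 and CITED1 and tested 7 of the 9, and DESeq2 gave the same 7 an adjusted p for CF against non-CF. No paired analysis was possible because litter was not labelled and no pig number is shared between labels. Any littermates among the pigs were therefore counted as independent. Over all genes, 73 were called for CF against non-CF (51 higher, 22 lower), 512 by DESeq2, 47 by limma-voom, 115 at a mean of 1 CPM, 121 with the number set as a term, 0 in the first number set, 462 in the second, 0 against HET alone and between 9 and 205 with 1 library left out. The split was 47 higher and 46 lower with upper-quartile normalization and 46 higher and 37 lower with library size alone. For CF against WT 72 genes were called, 575 by DESeq2, 172 with the number set as a term, and between 20 and 187 with 1 library left out. For CF against HET 0 were called, 63 by DESeq2 and 4 with the number set as a term; for HET against WT 1, and 34 by DESeq2. The interaction had 4 calls, and 151 by DESeq2. The cause of these shifts was not tested.

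None of the differences that changed sign had passed the adjusted threshold by edgeR over all libraries, and they included SIX2 (0.16), GDNF (-0.17), NTN1 (0.21) and WNT9B (0.52) for CF against non-CF. For that comparison, the first number set alone gave -0.047 for SIX2, 0.027 for EYA1, 0.029 for SALL1, -0.046 for LHX1, -0.0010 for WNT9B and -0.090 for NTN1. The second set alone gave 0.41 for OSR1, 0.099 for PAX2 and 0.16 for GDNF. Against HET alone, EYA1 stood at 0.043, OSR1 at 0.15, PAX2 at 0.14, GDNF at 0.053 and RET at 0.091, and against WT alone CITED1 at -0.044. OSR1 stood at 0.014 with limma-voom and at 0.023 with the number set as a term, which also gave SALL1 0.011 for HET against WT. With 1 library left out, CF against non-CF kept its sign from 0.081 to 0.28 for SIX2, -0.23 to -0.12 for GDNF, 0.038 to 0.10 for LHX1 and -0.12 to -0.013 for SALL1, and ranged from -0.016 to 0.14 for CITED1, -0.095 to 0.035 for EYA1, -0.080 to 0.059 for OSR1, -0.10 to 0.021 for PAX2 and -0.093 to 0.026 for RET. CF against WT ranged from -0.14 to 0.078 for CITED1 and -0.14 to 0.031 for EYA1. CF against HET ranged from -0.043 to 0.28 for SIX2, -0.046 to 0.090 for EYA1, -0.13 to 0.015 for SALL1, -0.044 to 0.11 for GDNF and -0.027 to 0.20 for RET. HET against WT ranged from -0.016 to 0.31 for SIX2, -0.089 to 0.051 for SALL1 and -0.071 to 0.038 for LHX1.

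The 5 lists had 0 calls for CF against non-CF, 2 by DESeq2 (ETV4 and WNT9B), 4 in the second number set, and between 0 and 1 with 1 library left out, the 1 being DUSP6 without CF pig 1. Of 16 pairs of genes, 1 passed, 4 on TPM (RET with GFRA1, GDNF, ETV4 and SIX2), 1 within the first number set and 0 within the second. Of the 27 pairs added afterwards 2 passed, 1 on TPM and 0 within either set. SIX2 and CITED1 had the fewest counts. Sampling of reads alone would give them a coefficient of variation of 17.3% and 18.1%, beside 32.8% and 31.8% seen.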
